A study of Mus musculus with 30 samples.

Results

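The Hox genes are the homeodomain transcription factors of the Hoxa, Hoxb, Hoxc and Hoxd clusters. Every gene model whose identifier maps to a mouse symbol made of Hox, a cluster letter and a paralog number was taken, which gave 39 of the 50764 gene models counted. They are 11 Hoxa genes on chromosome 6, 10 Hoxb genes on chromosome 11, 9 Hoxc genes on chromosome 15 and 9 Hoxd genes on chromosome 2. No measured value entered this rule, but the Hox genes were chosen with earlier results of these data known.

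The series measured polyadenylated RNA by sequencing in mouse macrophages and in cells that carry podoplanin (PDPN), a surface glycoprotein of fibroblastic stroma and mesothelium, and its title links macrophages with vitamin A. It holds 30 libraries in 10 groups of 3. Macrophages, sorted by F4/80, were taken ex vivo from a lavage, cultured alone, cultured with all-trans retinoic acid (ATRA) at 1 uM, co-cultured with PDPN+ cells, cultured with them across a transwell membrane, or sorted from cultures with BMS493 at 1 uM. PDPN+ cells were cultured alone, in co-culture, across a transwell, or with BMS493 at 1 uM. BMS493 acts as an inverse agonist on retinoic acid receptors. Whether cultures with BMS493 contained macrophages and PDPN+ cells together is not stated. The labels give no strain, genotype, age, sex or number of animals, and nothing says that replicates came from separate animals or cultures, so p-values here measure only the spread between these libraries. Each replicate number is 1 batch. For the co-cultures of the first batch, the cell types in the source names are swapped relative to titles and group labels, and the latter were followed.

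Hox proteins bind DNA together with TALE homeodomain partners of the Pbx, Meis and Pknox families and give cells along the body axis their positional identity. Genes at the 3′ end of each cluster (low paralog numbers) are used towards the head and those at the 5′ end towards the tail, and fibroblasts keep much of this pattern in culture. Retinoic acid is a known inducer of the 3′ Hox genes in the embryo, acting through receptors that bind DNA as heterodimers with RXR.

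The members of paralog group 5 had very different levels in the same cells: Hoxa5 had the highest mean of all 39 genes and was the Hox gene furthest below its controls by p-value under BMS493. Hoxa5 lies at chr6:52201754-52204587 on the minus strand, Hoxb5 at chr11:96303336-96306121 on the plus strand and Hoxc5 at chr15:102967443-103017429 on the plus strand, in GRCm38. Over whole transcripts of the reference annotation the longest run that Hoxa5 shared with any other Hox gene was 32 bases, with Hoxb7, and the run shared with Hoxb5 was 26. Only 4 of the 741 pairs of Hox genes shared a run of 50 bases or more: Hoxd3 with Hoxd4 (388 bases), Hoxc5 with Hoxc10 (168), Hoxa6 with Hoxb4 (52) and Hoxb9 with Hoxc9 (50). The exons of Hoxd3 and Hoxd4 overlap on the same strand, as do those of Hoxc5 and Hoxc10. Reads from a shared run could belong to either gene of a pair, and the counting rule is not given in the sources used here.

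The promoters of Hoxa5 and Hoxa2 are shown because these were the Hox genes with an unadjusted p under 0.05 and groups that did not overlap under BMS493 against both control cultures. Each line holds the 250 bases before the RefSeq start on the coding strand, at chr6:52204588-52204837 for Hoxa5 and chr6:52164832-52165081 for Hoxa2, GRCm38.p6. Letters searched on both strands were the nuclear receptor half-site AGGTCA, its variant GGGTCA, its variant AGTTCA, its variant GGTTCA and the Hox-Pbx type motif TGATTNAT, and capitals mark a match.
Hoxa5: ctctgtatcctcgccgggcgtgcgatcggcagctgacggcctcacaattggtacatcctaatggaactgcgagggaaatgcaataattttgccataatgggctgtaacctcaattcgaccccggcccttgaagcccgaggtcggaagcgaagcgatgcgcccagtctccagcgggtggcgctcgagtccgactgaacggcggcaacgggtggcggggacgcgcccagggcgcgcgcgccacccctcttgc
Hoxa2: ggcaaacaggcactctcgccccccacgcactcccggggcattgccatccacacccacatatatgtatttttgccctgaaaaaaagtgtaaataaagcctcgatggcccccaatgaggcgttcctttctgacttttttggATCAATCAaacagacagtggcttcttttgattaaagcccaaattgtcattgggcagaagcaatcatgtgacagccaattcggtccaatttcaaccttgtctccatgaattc
Neither window held a half-site. The Hoxa2 window held TGATTNAT once, on the opposite strand, against 2.83% of the 32851 promoter windows of all genes. RefSeq entries were found for 22 of the 39 Hox genes, as 24 windows, and 9 of these held at least 1 of the 4 half-sites, against 38.6% of all windows. AGGTCA itself was found in the windows of Hoxb4, Hoxc4, Hoxd3, Hoxd4, Hoxd8 and Hoxd10, against 14.02% of all windows. No Hox window held 2 of the 4 half-sites, alike or mixed, as a direct repeat spaced by 1, 2 or 5 bases, and 0.164%, 0.174% and 0.0883% of all windows did. A match is a description of the letters in this window and not of receptor binding.

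Library totals ran from 29350158 to 54099085 counts, RNA integrity numbers from 9.2 to 10 and sorted cells from 2148 to 25000. The fewest cells were in PDPN+ co-culture replicates 2 and 3 (3730 and 2148) and PDPN+ BMS493 replicate 3 (8229). Each library of PDPN+ cells alone had 25000. The F4/80 gene Adgre1 was at 1794 to 4915 CPM (counts per 1000000 counts of a library, with the total scaled by the TMM method) in the 18 macrophage libraries and at 0.674 to 66.1 CPM in the 12 PDPN+ libraries. Pdpn was at 90.5 to 208 CPM in PDPN+ libraries and at 0 to 685 CPM in macrophage libraries, with the highest values in cultured macrophages of replicate 3. The sum of 16 fibroblast markers was 23426, 25272 and 8209 CPM in PDPN+ cells alone and 35.2, 7.21 and 106 CPM in macrophages alone, in the order of replicates 1 to 3 that is kept throughout. Of the 106 CPM in macrophages alone replicate 3, the marker Dcn made up 88.2 CPM. The sum of 8 mesothelial markers was 2517, 2099 and 1582 CPM in PDPN+ cells alone, so these libraries held mesothelial beside fibroblast transcripts. In bulk RNA fewer cells of a type and less RNA per cell cannot be told apart. PDPN+ alone replicate 3 and PDPN+ transwell replicate 1 stood apart from the other PDPN+ libraries (median Spearman correlation over genes 0.896 and 0.903) and were closest to each other (0.943).

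In PDPN+ cells cultured alone, 15 of the 39 Hox genes were at 1 CPM or more in all 3 libraries. They were 6 of the 11 Hoxa genes, 6 of the 10 Hoxb genes, 3 of the 9 Hoxc genes and 0 of the 9 Hoxd genes. By paralog number they were 5 of the 8 genes of groups 1 to 3, 9 of the 15 of groups 4 to 8 and 1 of the 16 of groups 9 to 13. The single posterior gene was Hoxc13, known for its role in hair and nail, at 2.18, 2.75 and 1.83 CPM. Groups 4 to 8 made up 72.8% to 78.3% of the summed Hox RPKM (reads per kilobase of gene and per 1000000 reads, as deposited), groups 1 to 3 made up 19.9% to 24.4%, and groups 9 to 13 made up 1.64% to 2.76%. Hoxa13, Hoxc12 and Hoxd1 had no count in any of the 12 PDPN+ libraries. In PDPN+ cells alone a count of 0 over the group allows up to 0.0213 CPM, from 3 counts over its summed totals. All such limits and intervals cover counting error only.

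**Figure D1:**
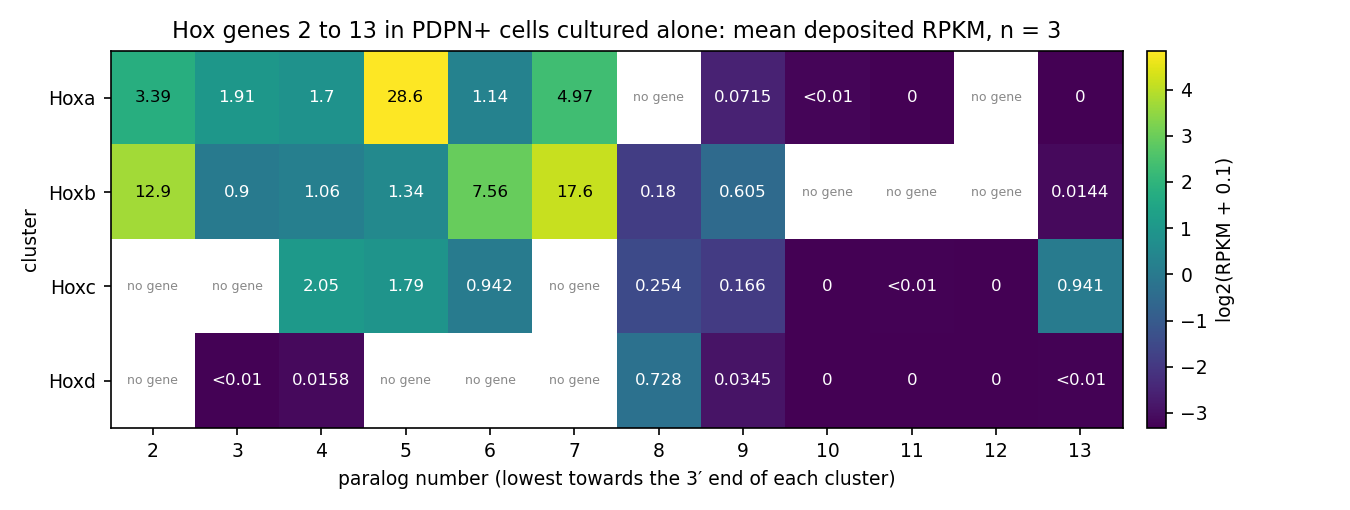
Mean deposited RPKM of the Hox genes of paralog numbers 2 to 13 in PDPN+ cells cultured alone (n = 3), with clusters as lines, paralog number along the horizontal axis and colour on a log2(RPKM + 0.1) scale; blank squares are paralog numbers that a cluster lacks. The highest squares lie at the lower and middle paralog numbers of Hoxa and Hoxb, with Hoxa5 highest at 28.6 RPKM, Hoxc13 apart at the 5′ end and Hoxd8 the highest Hoxd gene.

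Between genes, levels were compared per length, as the deposited RPKM. Hoxa5, a gene of middle paralog number known for patterning the lung and the cervical and upper thoracic skeleton, had the highest mean at 28.6 ± 6.55 RPKM (SD, n = 3). It was followed by Hoxb7 at 17.6 ± 6.8 RPKM and Hoxb2, known from the hindbrain, at 12.9 ± 6.81 RPKM. These 3 genes overlapped in that order, each with its neighbour. Hoxb6 followed at 7.56 ± 2.39 RPKM, Hoxa7 at 4.97 ± 0.976 RPKM and Hoxa2, a gene of the hindbrain and second pharyngeal arch, at 3.39 ± 0.323 RPKM. Hoxc4 had 2.05 ± 0.511 RPKM and Hoxa3, known for pharyngeal arch organs such as the thymus, 1.91 ± 0.625 RPKM. Hoxb6, Hoxa7 and Hoxa2 each did not overlap with the gene next below it in this order, while every other neighbouring pair did. The other 2 genes of group 5 were far lower than Hoxa5, at 1.79 ± 0.673 RPKM for Hoxc5 and 1.34 ± 0.661 RPKM for Hoxb5. Near the 1 CPM level, Hoxb3 was just inside with 1.25, 1.09 and 6.8 CPM, and Hoxc6 (1.12, 0.908 and 2.29 CPM) and Hoxb9 (0.831, 1.25 and 2.44 CPM) were just outside. Hoxb3 and Hoxb4 (1.27, 1.27 and 5.28 CPM) were highest in replicate 3, and in the transwell group they were highest in replicate 1, at 6.4, 2.02 and 1.27 and 5.68, 0.891 and 1.81 CPM, the pair of libraries that stood apart.

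PDPN+ cells were compared with macrophages, both cultured alone. Hoxa5 had 46.6, 44.6 and 64.6 CPM in PDPN+ cells and 0, 0 and 0.0736 CPM in macrophages. That was 7466 counts against 2, a ratio of 2661 (exact 95% binomial interval 736 to 21976), with an adjusted p of 3.16e-08 by edgeR's quasi-likelihood test. Hoxb2 had 12.5, 16.3 and 32.1 against 0, 0.156 and 0.0368 CPM, with a log2 fold change of 8.06 (SE 0.941, adjusted p 7.54e-07). Neither gene overlapped between the groups.

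In all, 23 of the 39 Hox genes had enough counts to be tested and 19 were called higher in PDPN+ cells at an adjusted p under 0.05, against 22.3% of all 20987 genes tested. None was called lower, against 16.6% of all genes, with DESeq2 also calling 19 Hox genes. The other 16 genes did not pass the filter on low counts. The median log2 difference of the tested Hox genes was 6.52 and that of all genes 0.08. A gene passes that filter if it is high in either cell type, so the median describes the tested genes and not the family.

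Of the genes of groups 1 to 3, Hoxa2 had 5.79, 6.49 and 5.28 CPM in PDPN+ cells and no count in macrophages alone, at least 194-fold higher against the limit of 3 counts over the group. Hoxa3 had 4.78, 6.43 and 3.21 CPM against 1 count in all (ratio 465, interval 83.1 to 18384). The exons of Hoxa2, Hoxa3 and Hoxb2 overlap those of another gene, and no source used here says whether counting used strand, so part of their counts may belong to that neighbour. The same held for Hoxa4, Hoxa7, Hoxb3 and Hoxb5, while Hoxa5, Hoxb6, Hoxb7, Hoxc4 and Hoxc13 had no such overlap.

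Of groups 4 to 8, Hoxc5 had 6.21, 2.88 and 6.13 CPM against no count (at least 176-fold higher), and its exons overlap those of Hoxc10, which had no count in PDPN+ cells alone. Hoxc4 had 4.51, 4.33 and 6.46 CPM against 2 counts (ratio 262, interval 72.2 to 2164). Hoxa7 had 12.4, 9.6 and 14 CPM against 2 counts (ratio 616, interval 170.1 to 5086). Hoxb6 had 11.5, 12.4 and 19.3 against 0.141, 0.201 and 0.11 CPM, with a log2 fold change of 6.52 (SE 0.866, adjusted p 2.58e-06). Hoxb7 had the smallest fold of the 5 most abundant genes, at 18.9, 15.8 and 31.2 against 1.3, 2.99 and 2.98 CPM, a log2 fold change of 3.18 (SE 0.437, adjusted p 4.28e-06). All 5 of these genes were higher in each PDPN+ library than in any of the 3 macrophage libraries.

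Hoxa4 (ratio 91.2, interval 30.99 to 444), Hoxb5 (ratio 255, interval 45.5 to 10107) and Hoxc6 (ratio 50.6, interval 17.1 to 247) were also called higher. Hoxa6 had 1.25, 1.63 and 0.0369 CPM and Hoxd8 0.623, 1.25 and 3.9 CPM, with no count of either in macrophages alone, which made them at least 29.7-fold and at least 68.7-fold higher. Replicate 3 was the lowest of the 3 PDPN+ libraries for Hoxa6 and the highest for Hoxd8. The calls of Hoxb3 (log2 fold change 2.73, SE 1.06, adjusted p 0.0446) and Hoxb8 (4.42, SE 1.57, adjusted p 0.0314) were lost without PDPN+ alone replicate 3, one of the libraries that stood apart, at adjusted p of 0.337 and 0.295. Hoxb8 had 0.0415, 0.156 and 1.16 CPM in PDPN+ cells. Both calls were also lost with the replicate number as a block, at adjusted p of 0.0518 and 0.0502, and without macrophages alone replicate 1 or 3. Of the posterior genes, Hoxc13 had 0, 0.112 and 0.184 CPM in macrophages (log2 fold change 4.47, SE 1.05, adjusted p 0.00215), and Hoxb9 no count against 0.831, 1.25 and 2.44 CPM, at least 52.3-fold higher.

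The 4 tested genes that were not called were Hoxb4, Hoxb13, Hoxc8 and Hoxc9. Hoxb4, which is expressed in blood progenitors, had 0.493, 2.39 and 0.772 CPM in macrophages alone and overlapped with the PDPN+ libraries (log2 fold change 1.09, SE 0.627, adjusted p 0.177). Hoxb13 was the only tested Hox gene with a lower mean in PDPN+ cells, at 0.0415, 0.0519 and 0 against 0.317, 0.29 and 0.441 CPM (log2 fold change -3.41, SE 1.52, adjusted p 0.0815). Its 3 macrophage libraries were all above the 3 PDPN+ libraries.

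Among the partners of Hox proteins, 4 of 9 TALE genes were called higher in the PDPN+ cells and 1 lower, where 22.3% of all genes were called higher and 16.6% lower. Meis1 had 101, 99.3 and 46.5 CPM against 2.61, 1.72 and 1.54 CPM (log2 fold change 5.39, SE 0.446, adjusted p 2.82e-09). Meis2 had 27.7, 29.4 and 37.2 CPM in PDPN+ cells, and Pbx3 was the gene called lower. All 6 of the tested noncoding genes of the Hox clusters, of 25 listed, were called higher, among them Hoxb5os, whose exons overlap those of Hoxb5. Of 16 other positional transcription factors of trunk mesenchyme, 13 of 15 tested were called higher, and of 22 Polycomb and trithorax regulators 6 were called higher and 3 lower, near those shares of all genes. The ParaHox and Cdx list of 6 genes had none with enough counts to be tested.

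The response to BMS493 was compared in PDPN+ cells against co-culture and against PDPN+ cells alone. Hoxa5 had 18.7, 14.2 and 10.03 CPM with BMS493, 44.4, 45.4 and 33 CPM in co-culture, 46.6, 44.6 and 64.6 CPM alone and 81.3, 44.2 and 50.2 CPM across the transwell. All 3 BMS493 libraries were below all 9 others. Against co-culture the log2 fold change was -1.51 (SE 0.333, p 0.000797), which did not pass the adjustment over all genes (adjusted p 0.418 by edgeR's quasi-likelihood test). Against PDPN+ cells alone it was -1.88 (SE 0.337, p 0.000152, adjusted p 0.0537). Within batches 1, 2 and 3, Hoxa5 was at 42.1, 31.4 and 30.3% of its co-culture level and 40.02, 31.9 and 15.5% of its level alone.

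Hoxa5's call turned on the test. DESeq2 called it in both comparisons, at adjusted p of 0.00801 against co-culture and 2.52e-05 against alone, where it called 108 and 697 genes of all. EdgeR called it against alone with RLE factors (adjusted p 0.0486) or with no filter on low counts (0.0407). With the replicate block the adjusted p against alone was 0.0501. Over 14 alternatives the log2 fold change against co-culture ran from -1.74 to -1.30 and the adjusted p from 0.00801 to 1, with the same sign in each.

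**Figure D2:**
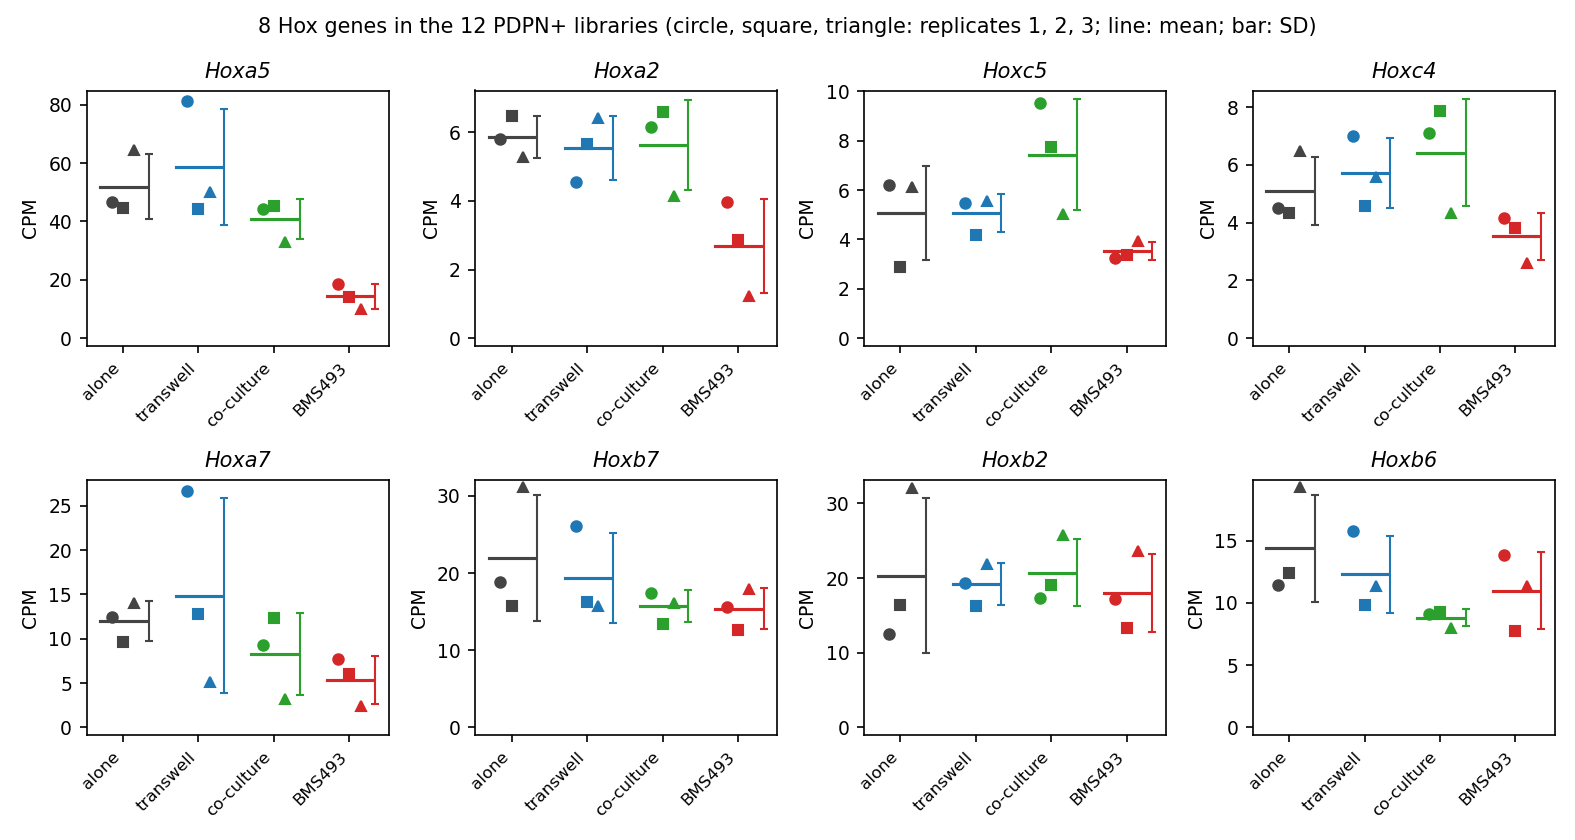
CPM of 8 Hox genes in the 12 PDPN+ libraries, by culture, with 1 point per library, a line at the mean and a bar for the SD (n = 3). The 3 BMS493 points of Hoxa5 lie between 10.03 and 18.7 CPM, below all 9 others, while the BMS493 points of Hoxb7, Hoxb2 and Hoxb6 lie among those of the other cultures.

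Against co-culture, 0 of the 22 Hox genes tested were called by edgeR, against 0.0157% of all 19134 genes. 5 had an unadjusted p under 0.05, all lower, against 2.05% of all genes, and DESeq2 called 1. The groups did not overlap, with BMS493 lower, for 6 of the 22 genes, Hoxa2, Hoxa5, Hoxb3, Hoxb5, Hoxc4 and Hoxc5, against 5.32% of all genes. 17 of 22 had a negative log2 fold change, with a median of -0.56 over the tested Hox genes and 0.01 over all genes. In simulated counts for this comparison, 0% of 2-fold, 44% of 4-fold and 98% of 8-fold changes were called. The simulation gave every gene the same spread, smaller than the common one fitted to these libraries, and no batch effect. Only genes at a mean of 2 CPM or more were changed in it, so these shares do not cover the lower Hox genes.

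Hoxa2 had 3.97, 2.86 and 1.24 CPM with BMS493 and 6.14, 6.59 and 4.13 CPM in co-culture (log2 fold change -1.06, SE 0.424, p 0.0293, adjusted p 1). The highest BMS493 library was below the lowest co-culture library, and in batches 1, 2 and 3 it was at 64.5, 43.5 and 30.02% of the co-culture level. Hoxc5 had 3.25, 3.38 and 3.93 against 9.53, 7.74 and 5.05 CPM (-1.08, SE 0.388, p 0.0179, adjusted p 1). The co-culture libraries of Hoxc5 were all above those of BMS493, but PDPN+ alone replicate 2, at 2.88 CPM, was below all 3 BMS493 libraries. Hoxc4 had 4.15, 3.82 and 2.61 against 7.1, 7.85 and 4.32 CPM (-0.86, SE 0.375, p 0.0418, adjusted p 1). Its RefSeq promoter window held AGGTCA 146 bases before the start and AGTTCA 184 bases before it, both on the opposite strand. The windows of Hoxb4 and Hoxd8 held AGGTCA too, and their log2 fold changes were -0.15 (SE 0.737) and 1.43 (SE 0.832). A link between half-sites and the values with BMS493 was not tested. Hoxa4 had 0.661, 1.03 and 1.83 against 2.4, 7.41 and 1.65 CPM (-1.70, SE 0.760, p 0.0464, adjusted p 1), these groups overlapped, and the value was -0.78 without co-culture replicate 2.

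The other abundant genes did not separate. Hoxb7 had 15.6, 12.7 and 18 CPM with BMS493 and 17.5, 13.4 and 16.2 CPM in co-culture, at 89.1, 94.3 and 111% of the co-culture level by batch (log2 fold change -0.02, SE 0.333, adjusted p 1). Hoxb2 had 17.1, 13.3 and 23.6 against 17.3, 19 and 25.8 CPM (-0.20, SE 0.376) and Hoxb6 13.9, 7.71 and 11.4 against 9.14, 9.27 and 8.02 CPM (0.32, SE 0.333). Hoxa7 had 7.67, 6.05 and 2.41 against 9.27, 12.3 and 3.26 CPM (-0.62, SE 0.643), with replicate 3 lowest in both groups. Hoxb9 had 1.32, 4.68 and 6.39 against 0.822, 2.65 and 4.06 CPM (0.72, SE 0.834). It was higher with BMS493 in each batch, though the groups overlapped. Against PDPN+ cells alone Hoxb9 was also higher in each batch, with overlap (1.43, SE 0.847). The highest positive value against co-culture was that of Hoxd8, at 1.43 (SE 0.832, p 0.112). Hoxd8 was near or below 1 CPM in co-culture, at 0.297, 0.71 and 0.118 CPM.

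**Figure D3:**
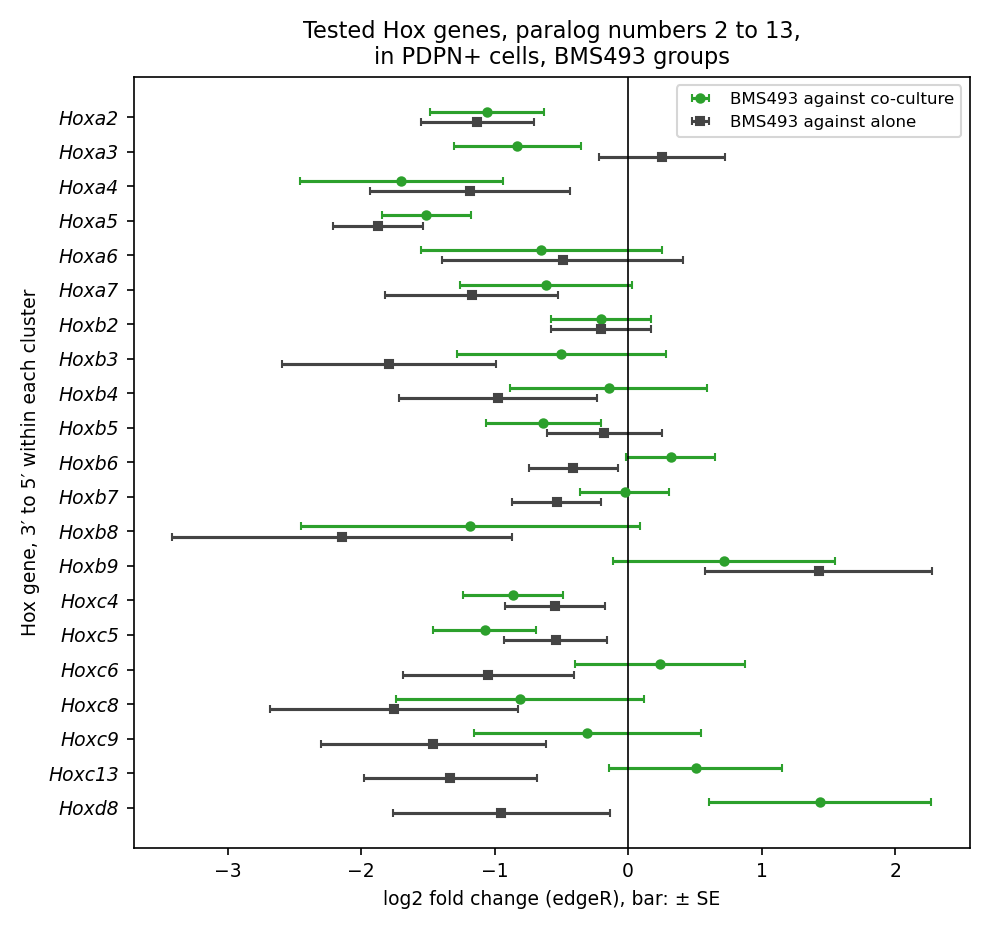
Log2 fold change of the tested Hox genes of paralog numbers 2 to 13 in PDPN+ cells with BMS493 against co-culture (circles) and against PDPN+ cells alone (squares), with bars for ± SE and genes ordered along each cluster. Hoxa5 lies at -1.51 and -1.88, Hoxa2 at -1.06 and -1.13, and Hoxb2 and Hoxb7 lie nearer to 0; the contrasts share the 3 BMS493 libraries.

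Against PDPN+ cells alone, edgeR called 0 of 22 Hox genes, against 0.24% of all genes, and DESeq2 called 1. An unadjusted p under 0.05 was found for 3, all lower, against 5.26% of all genes: Hoxa5, Hoxa2 (-1.13, SE 0.425, p 0.0217, adjusted p 0.371) and Hoxb3 (-1.79, SE 0.799, p 0.0459, adjusted p 0.455). The Hoxb3 value was -0.38 without the 2 libraries that stood apart. 20 of the 22 had a negative value, with a median of -0.96 against -0.03 over all genes, and 6 did not overlap with BMS493 lower, Hoxa2, Hoxa5, Hoxa7, Hoxb3, Hoxc4 and Hoxc13, against 8.86% of all genes. Both comparisons use the same 3 BMS493 libraries, so their signs are not independent.

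As a share of the summed Hox RPKM, the Hoxa cluster made up 23.9% to 35.1% in the 3 BMS493 libraries and 40.7% to 55.4% in the 9 other PDPN+ libraries. The Hoxb cluster made up 57.4% to 68.1% with BMS493 and 36.8% to 53.3% in the others. With Hoxa5 left out of both sums, the Hoxa share was 15.96% to 21.9% with BMS493, 16.7% to 29.6% alone, 20.5% to 36.8% in co-culture and 28.8% to 29.5% across the transwell. Those ranges overlapped for BMS493, alone and co-culture. The summed CPM of all 39 genes was 84 to 102.5 with BMS493 and 127.6 to 222.8 in the other 9 libraries. These sums include Hoxa5, at 10.03 to 18.7 CPM with BMS493 and 33 to 81.3 CPM in the other 9. A CPM sum without Hoxa5 was not taken, so no fall of the other Hox genes is read from these sums.

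Marker sums moved between these libraries too. The mesothelial sum was 1070, 247 and 2.56 CPM with BMS493, 1040, 122 and 18.9 CPM in co-culture and 1627, 1333 and 134 CPM across the transwell. The 16 macrophage markers summed to 1729, 3948 and 2548 CPM with BMS493, 2577, 2371 and 1718 CPM in co-culture and 146, 87.9 and 99.5 CPM alone. The fibroblast sum was 37893, 27852 and 33407 CPM with BMS493 and 43688, 47523 and 18461 CPM in co-culture. None of the 8 mesothelial, 16 macrophage or 16 fibroblast markers was at 0 in all 3 libraries of any of these groups. In PDPN+ BMS493 replicate 3, however, Msln, Lrrn4, Krt8, Krt18 and Muc16 had no count, and Krt19 made up 1.79 of the 2.56 CPM. Likewise, in PDPN+ co-culture replicate 3 Muc16 had no count, and Krt19 made up 17.6 of the 18.9 CPM. The part of the cell mixture in the Hoxa5 difference was not tested.

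**Figure D4:**
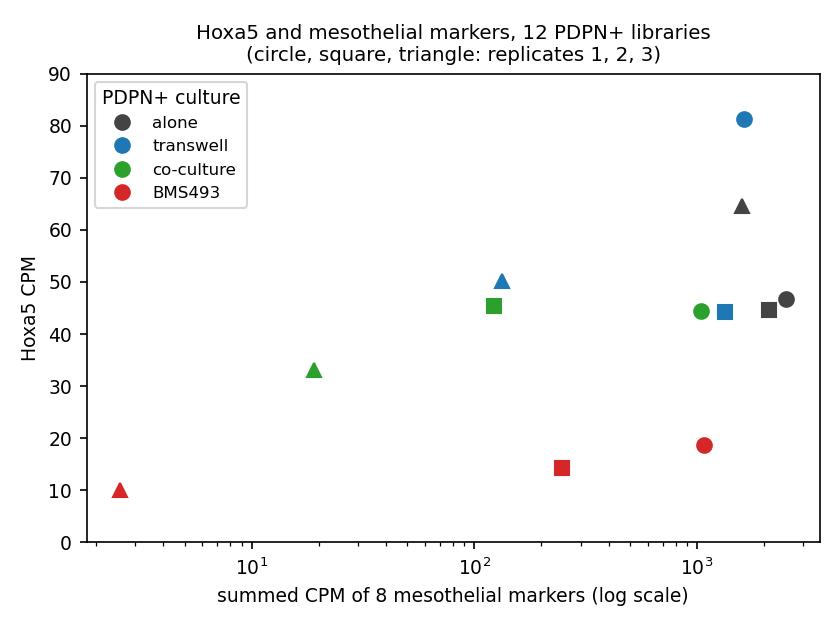
Hoxa5 CPM against the summed CPM of 8 mesothelial markers (log axis) in the 12 PDPN+ libraries, coloured by culture, with circle, square and triangle for replicates 1, 2 and 3. The BMS493 libraries lie lowest in Hoxa5 at mesothelial sums from 2.56 to 1070 CPM, and co-culture libraries at 18.9 to 1040 CPM lie at 33 to 45.4 CPM of Hoxa5.

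For scale, 1 of 17 tested genes of the retinoic acid response and metabolism list was called lower with BMS493 than in co-culture and none higher. It was Dhrs3, a retinaldehyde reductase induced by retinoic acid, at 2.78, 8.27 and 6.83 CPM against 233, 199 and 75.1 CPM (log2 fold change -4.82, SE 0.536, adjusted p 0.0297). With the replicate block none of the list was called, and with DESeq2 5 were. Against PDPN+ cells alone Dhrs3 (-3.98, SE 0.516, adjusted p 0.0275) and the receptor gene Rarb (-5.81, SE 1.01, adjusted p 0.0490) were called lower. Rarb had 0.106, 0 and 0.62 CPM with BMS493 and 20.3, 17.8 and 5.28 CPM alone. None of the 9 Hox partners, 22 Polycomb and trithorax regulators, 15 positional factors or 6 noncoding genes tested was called by edgeR in either comparison. Against PDPN+ cells alone, 4 of 9 Hox partners and 5 of 15 positional factors were lower with BMS493 without overlap. Over all genes that share was 8.86%. In each of these 2 lists 1 gene was higher without overlap. The same held, lower, for 2 of 22 regulators and 1 of 6 noncoding genes. Against co-culture no Hox partner or positional factor was without overlap.

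Whether the effect of BMS493 against co-culture differed between PDPN+ cells and macrophages was tested as an interaction. It was called for 0 of 23 Hox genes, against 0.00953% of all genes, 0 were called with DESeq2, and 0 had an unadjusted p under 0.05, against 4.03%. For Hoxa5 the difference of the effects was -0.38 (SE 0.958), so at the level of Hoxa5 in macrophages no difference was detectable. Only 8 Hox genes had enough counts to be tested in the macrophage libraries. For the others the interaction could hardly show a difference, so no conclusion is drawn from it. The macrophage side may also hold RNA of PDPN+ cells.

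Culture with macrophages and without BMS493 was compared with PDPN+ cells alone. In co-culture edgeR and DESeq2 called 0 of 22 Hox genes, as edgeR called 0% of all genes. 3 Hox genes had an unadjusted p under 0.05, against 9.39% of all genes. Hoxc13 had 0.754, 0.557 and 0.59 CPM in co-culture and 2.18, 2.75 and 1.83 CPM alone, without overlap (log2 fold change -1.84, SE 0.659, p 0.0173, adjusted p 0.512). Hoxd8 had 0.297, 0.71 and 0.118 against 0.623, 1.25 and 3.9 CPM (-2.38, p 0.017), and Hoxa3 6.1, 13.8 and 10.9 against 4.78, 6.43 and 3.21 CPM (1.09, p 0.0431), both with overlap. The Hoxd8 value was -1.30 without PDPN+ alone replicate 3, one of the libraries that stood apart, and -3.23 without co-culture replicate 2. Hoxb6 and Hoxc6 also did not overlap, lower in co-culture, which made 3 of 22 genes against 8.48% of all genes. Hoxb6 had 9.14, 9.27 and 8.02 CPM in co-culture.

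Across the transwell, edgeR and DESeq2 called 0 of 22 Hox genes, as edgeR called 0% of all genes, and 0 had an unadjusted p under 0.05, against 2.23%. Hoxa5 was at a log2 fold change of 0.20 there, and at -0.14 without transwell replicate 1, which had 81.3 CPM. The sign for Hoxa5 rested on that library. In co-culture 14 Hox genes were at 1 CPM or more in all 3 libraries, with 13 across the transwell and 13 with BMS493, against the 15 alone.

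In macrophages the Hox genes were low. No Hox gene reached 1 CPM in all 3 libraries ex vivo, and Hoxb7 alone did so in macrophages cultured alone, in co-culture, across the transwell and with BMS493. With ATRA Hoxb7 and Hoxb4 did. The summed CPM of the 39 genes was 1.88 to 11.5 in the 18 macrophage libraries. Hoxb7 had 1.14, 0.605 and 1.62 CPM ex vivo, 1.3, 2.99 and 2.98 alone, 2.15, 2.25 and 5.21 with ATRA, 2.72, 3.4 and 4.28 in co-culture, 2.14, 2.33 and 2.89 across the transwell and 2.29, 2.78 and 4.73 with BMS493. It was counted in all 18 libraries, as was Hoxb4, which had 0.443, 0.324 and 0.404 CPM ex vivo and 1.26, 1.9 and 1.08 CPM with ATRA. Hoxc4 had 0.348, 0.281 and 0.0866 CPM ex vivo and 0, 0 and 0.0736 CPM in culture alone.

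8 Hox genes had enough counts to be tested in macrophages, among them Hoxa5, Hoxb2, Hoxb3, Hoxb4, Hoxb6, Hoxb7 and Hoxb13, and edgeR called none in any of 5 comparisons. For macrophages alone against ex vivo the share called over all 17774 genes was 17.8%. There 4 Hox genes had an unadjusted p under 0.05, all higher in culture, against 16.7% of all genes. Hoxb4 had 0.493, 2.39 and 0.772 CPM alone, above all 3 ex vivo libraries (log2 fold change 1.65, SE 0.557, p 0.00984, adjusted p 0.0534), and DESeq2 called it at 0.0249. It was also called by edgeR without macrophages alone replicate 1 or 3, but without replicate 2, the highest library, the value was 0.70 (adjusted p 0.406). Hoxb7 (1.11, SE 0.461, adjusted p 0.111) was called with the replicate block, at 0.0332. Hoxb3 (3.33, adjusted p 0.104) and Hoxb2 (4.23, adjusted p 0.116) were the others; these are fitted values, with 0, 0.0865 and 0.0289 CPM of Hoxb3 and no count of Hoxb2 ex vivo, and without macrophages alone replicate 2 they were 2.60 and 2.44.

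**Figure D5:**
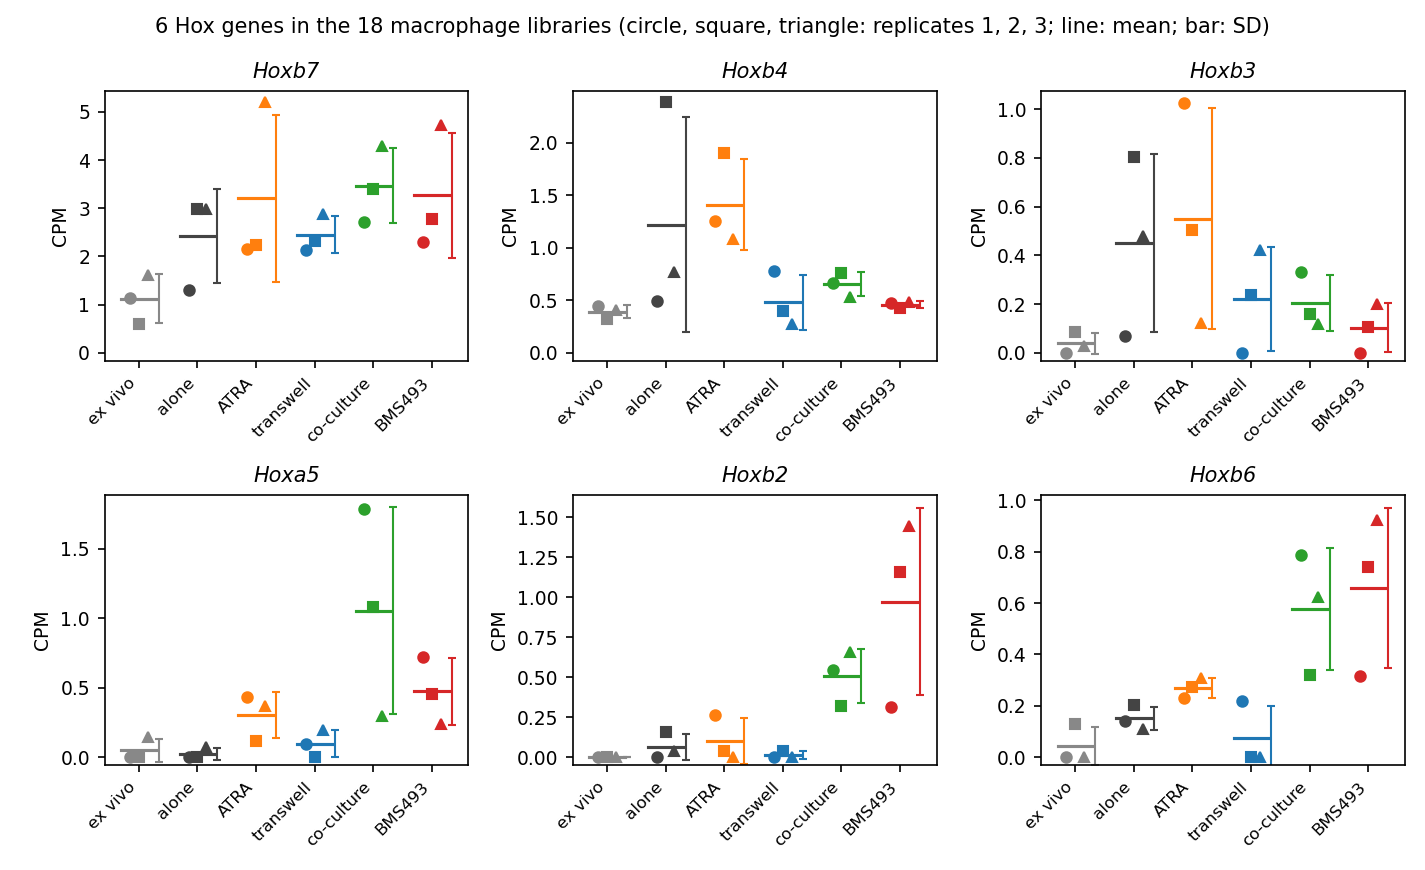
CPM of 6 Hox genes in the 18 macrophage libraries, by group, with 1 point per library, a line at the mean and a bar for the SD (n = 3). Hoxb7 lies between 0.605 and 5.21 CPM in every library, and Hoxa5, Hoxb2 and Hoxb6 lie highest in the co-culture and BMS493 groups; each panel has its own vertical scale.

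ATRA gave no called Hox gene in macrophages by edgeR, against 0.326% of all genes, nor by DESeq2. 1 had an unadjusted p under 0.05, against 7.6%: Hoxa5, at 0.43, 0.116 and 0.37 CPM with ATRA and 0, 0 and 0.0736 CPM alone (log2 fold change 3.61, p 0.0224, adjusted p 0.508). That fitted value rests on 2 counts in macrophages alone, both in replicate 3, and was 6.29 without that library, which is no bound. In the same libraries 4 of 16 tested genes of the retinoic acid list were called higher and none lower. Cyp26a1, which breaks down retinoic acid, had 207, 381 and 86.5 CPM with ATRA and no count alone. Rarb had 13.2, 25.8 and 32.6 CPM against 0.88, 1.07 and 2.83 CPM (log2 fold change 3.90, adjusted p 0.00206), and Nrip1, a corepressor of nuclear receptors, 239, 330.1 and 182 against 48.7, 30.4 and 32.7 CPM (2.74, adjusted p 0.000298). The fibroblast sum was 63.7, 37.6 and 131 CPM with ATRA and 35.2, 7.21 and 106 CPM alone, and its part in the Hoxa5 value was not tested. In replicate 3 most of each sum was the marker Dcn, at 110 CPM with ATRA and 88.2 CPM in macrophages alone.

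In co-cultured macrophages edgeR called 0 of 8 Hox genes, against 0.698% of all genes, and DESeq2 called 1, Hoxa5, at 0.00915. 2 had an unadjusted p under 0.05, against 12.8% of all genes. Hoxa5 had 1.79, 1.08 and 0.297 CPM in co-culture against 0, 0 and 0.0736 CPM alone (log2 fold change 5.35, SE 1.43, p 0.00199, adjusted p 0.104), without overlap, and it was called without the libraries of batch 3 at 0.0278. Hoxb2 had 0.545, 0.32 and 0.654 against 0, 0.156 and 0.0368 CPM (2.75, p 0.0367). Without macrophages alone replicate 3, which held both of that group's Hoxa5 counts, the fitted Hoxa5 value was 8.05, and without replicate 2 the Hoxb2 value was 4.52. Beside these values, the fibroblast sum was 1380, 536 and 319.8 CPM in co-cultured macrophages and 35.2, 7.21 and 106 CPM in macrophages alone. In replicate 3 Dcn made up 128 and 88.2 CPM of these sums. As a share of the level in PDPN+ co-culture, above the level of macrophages alone, the median fibroblast marker was at 3.41%, 1.40% and 0.846% in the 3 batches. Single fibroblast markers ran from 1.28% to 6.75%, -1.09% to 7.72% and -5.21% to 29.2% in these batches. From the means of the 3 libraries, the median fibroblast marker was at 1.93% (range 1.18% to 3.36%). The 14 Hox genes at 1 CPM or more in PDPN+ co-culture were at a median of 2.45% from such means, 12 of them above 0. They ran from -37.4% for Hoxb4 to 6.66% for Hoxb7, with Hoxa5 at 2.52%. RNA of PDPN+ cells in the macrophage sort and Hox expression in macrophages cannot be told apart from these values.

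With BMS493 against co-culture, edgeR and DESeq2 called 0 of 8 Hox genes in macrophages, against 0.85% of all genes by edgeR, and 0 had an unadjusted p under 0.05, against 8.8%. Hoxa5 had 0.723, 0.457 and 0.241 CPM with BMS493, overlapping with co-culture. The fibroblast sum was 1031, 773 and 1115 CPM with BMS493. Across the transwell edgeR and DESeq2 called 0 of 8, against 0.0281% of all genes by edgeR, and 1 had an unadjusted p under 0.05, against 9.56%. That was Hoxb4, at 0.776, 0.395 and 0.27 CPM across the transwell and 0.493, 2.39 and 0.772 CPM alone (-1.35, p 0.0274, adjusted p 0.459), these groups overlapped, and the value was -0.39 without macrophages alone replicate 2. The fibroblast sum across the transwell was 46.7, 31.7 and 162 CPM, with Dcn at 140 CPM in replicate 3, and Hoxa5 was at 0.0931, 0 and 0.193 CPM there.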

How the data were processed

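Polyadenylated RNA of 30 mouse libraries was used, 3 in each of 10 groups. The deposited tables hold a whole-number count and an RPKM value per Ensembl gene and library, per the file headers. Per the submitters' processing notes the authors used GSNAP and GRCm38; aligner version, annotation and strand use: not given in the sources used here. Symbols were matched to the reference by Ensembl identifier; all 39 Hox genes matched, and 192 identifiers that hold 0.0358% of counts had no symbol. Promoter sequences are from RefSeq.

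CPM was the count over the library total scaled by TMM across all 30 libraries and serves comparisons within a gene. Tests were edgeR 4.0.16 quasi-likelihood fits (R 4.3.3, limma 3.58.1) after filterByExpr, over 19134 genes in the 12 PDPN+ libraries, 17774 in the 18 macrophage libraries and 20987 in all 30, with Benjamini-Hochberg adjustment over all genes tested and calls at an adjusted p under 0.05. The SE was derived from the F statistic. The common biological coefficient of variation was 0.573, 0.499 and 0.551 in these 3 fits. The fits were tested on simulated data. Totals of 29350158 to 54099085 counts per library place the limit of 3 counts at 0.0213 to 0.0359 CPM over a group. The least different pair of replicates had a chi-square of 42.7 per degree of freedom, so no library was treated as a repeat.

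The replicate number is the batch in the labels. Deviations from group means correlated within a batch at a median of 0.187 over 18 pairs of PDPN+ libraries (range -0.369 to 0.687) and 0.262 over 45 pairs of macrophage libraries (range -0.0991 to 0.733), against -0.130 and -0.114 for other pairs.

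Named Hox genes were the 8 with the highest mean RPKM in PDPN+ cells alone, every gene called, the 4 with the highest mean CPM in ex vivo macrophages and those next to the 1 CPM level; others with an unadjusted p under 0.05 or a separate range were chosen after their values were seen. Of each other list at most 3 called genes were named. Some results that these rules select are not reported here. Alternatives were DESeq2 1.42.0, RLE factors, no low-count filter, the replicate block, only the 6 libraries compared, and leaving out each library, batch 3 or the co-culture libraries with fewest cells. Leaving out the 2 libraries that stood apart was added after seeing the data. The Hox genes and all lists were chosen with earlier results of these data known.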

Additional observations from a re-analysis of the deposited data

How the results depend on the processing

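Of the 19 Hox genes called higher in PDPN+ cells than in macrophages, 19 were called with DESeq2, 19 with RLE factors, 18 with no filter, 17 with the replicate block, 15 with only the 6 libraries compared, and 17 to 20 when 1 library was left out. In the other comparisons the count of 0 called Hox genes became 1 in these cases: PDPN+ BMS493 against co-culture with DESeq2 (1, Hoxa5); PDPN+ BMS493 against alone with DESeq2, RLE factors and no filter (1 each, Hoxa5); macrophages alone against ex vivo with DESeq2 (1, Hoxb4), the replicate block (1, Hoxb7) and without batch 3 (1, Hoxc4), with 0 to 1 (Hoxb4 or Hoxb13) when 1 library was left out; and co-cultured macrophages against alone with DESeq2 or without batch 3 (1 each, Hoxa5). The cause was not tested. In the remaining comparisons the count was 0 under each alternative run. The number of Hox genes at 1 CPM or more in PDPN+ cells alone was 15, against 18 at 0.5 CPM, 10 at 2 CPM, 17 with plain library totals and 16 to 17 when 1 library was left out. In ex vivo macrophages it was 1 at 0.5 CPM and 0 to 1 when 1 library was left out, and in macrophages alone 0 at 2 CPM. Hoxa5 across the transwell against alone was -0.14 (without transwell replicate 1) to 0.38 (without PDPN+ alone replicate 3) when 1 library was left out, and 0.50 without batch 3. Over all genes DESeq2 called more than edgeR, as in 346 against 0 genes for PDPN+ co-culture against alone. Depth limits the macrophage values: under the limit of 3 counts a Hox gene may be present and not counted.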

Other observations

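In macrophages cultured alone against ex vivo, edgeR called 1 of 9 TALE partners of Hox proteins and 1 of 22 Polycomb and trithorax regulators, both lower. Meis1, the partner, was at 2.61, 1.72 and 1.54 against 8.13, 5.17 and 8.37 CPM (log2 fold change -1.88, SE 0.372, adjusted p 0.00281). Ezh2, the histone methyltransferase of Polycomb, was called lower at 7.29, 4.44 and 5.96 against 12.5, 39 and 25.6 CPM (-2.13, SE 0.386, adjusted p 0.0015). Neither gene overlapped between the groups. Hotairm1, a noncoding transcript of the Hoxa cluster, was called higher in culture, at 1.02, 3.08 and 1.25 against 0.791, 0.411 and 0.722 CPM (1.48, adjusted p 0.0424). Over all genes 17.8% were called in this comparison.

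Of the retinoic acid list, 8 of 16 tested genes were called lower in macrophages alone than ex vivo and none higher. Rarb had 78.3, 49.1 and 69 CPM ex vivo and 0.88, 1.07 and 2.83 CPM alone. In co-culture 4 of 16 were called higher than alone, against 0.698% of all genes called, with Rarb at 16.9, 26.1 and 17.1 CPM. With BMS493 3 of 16 were called lower than in co-culture, against 0.85% of all genes called, with Rarb at 0.314, 0.739 and 0.481 CPM.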
